A study of Mus musculus with 12 samples.

Results

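The 37 collagen chains are the genes of the deposited mouse table whose symbols read Col, a type number, the letter a and a chain number, out of 15687 genes in all. They were sorted by textbook class into 11 fibrillar, 6 basement membrane, 3 network and 5 FACIT (fibril-associated, with an interrupted triple helix) chains. The remaining 12 were 4 beaded filament chains, 1 anchoring fibril chain, 3 transmembrane chains, 2 multiplexins and 2 that were placed in no class. The GENCODE annotation of the GRCm38 build names 44 such genes, and the other 7 (Col19a1, Col22a1, Col25a1, Col6a4, Col6a6, Col9a1 and Col9a2) were not analysed here.

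RNA sequencing was performed on 12 subcutaneous allograft tumors grown from the mouse lung cancer line mTC11 to ask which transcripts differ once the tumor cells carry less Filip1l. The 6 control (CTL) tumors came from cells with a lentiviral scrambled short hairpin RNA, and the 6 Filip1l-knockdown (KD) tumors from cells with a lentiviral hairpin against Filip1l. Both kinds of cells were puromycin-selected mixed clones, injected into male C57BL6/J mice 8 weeks of age, and the tumors were taken at day 24. Hairpins against 2 Filip1l sequences were made, and the labels do not say which one these tumors carried. Host cells keep their own Filip1l and contribute to each library.

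Collagens are secreted proteins in which 3 chains wind into a triple helix, and each chain repeats short glycine triplets to allow it. Fibrillar chains (types I, II, III, V, XI, XXIV and XXVII) build the cable-like fibrils of connective tissue and scar. Type IV chains form the sheet under epithelia and around vessels, types VIII and X form short-chain networks, and FACIT chains coat fibrils. In a tumor, fibroblasts are the best-known source of fibrillar and type VI collagen, while tumor cells, endothelial cells and pericytes make type IV.

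The repeat was counted in the longest reading frame of each gene. Counting uninterrupted runs of at least 6 glycine triplets, the fibrillar chains held 2 or 3 runs each, and the longest run of a chain was 216 to 344 triplets. The type IV chains held 22 to 27 runs with a longest run of 39 to 66 triplets. The 3 network chains held 8 runs each. The FACIT chains varied among themselves: such runs covered 7.64%, 13.0% and 11.0% of the protein in Col12a1, Col14a1 and Col20a1, but 59.4% in Col16a1 and 85.6% in Col9a3.

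Each tumor had 17834745 to 32419578 reads on the listed genes, recovered from the smallest step between its values. The values are normalized counts that are not corrected for gene length, so levels of different chains are compared below per kilobase of exon. The ratios of chain pairs are the exception: they use counts without length correction and are compared only between the groups. At these depths 3 reads are worth 2.59 to 4.48 normalized counts. Filip1l stood at 1983, 2354 and 2542 normalized counts (lowest, median and highest of 6) in the CTL tumors and at 1670.1, 1935 and 2184 in the KD tumors. It fell by 0.26 on the log2 scale (limma on log2(normalized count + 1), Benjamini-Hochberg adjusted p = 0.00998), and its groups overlapped.

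In these bulk tumors fewer cells of a type and less RNA per cell cannot be told apart. The epithelial genes Epcam, Krt8 and Cdh1 were abundant, and genes of lung epithelium ranged widely. Nkx2-1, the lung lineage factor, had medians of 14.5 normalized counts in CTL and 22.7 in KD tumors, and Sftpc, a surfactant gene, medians of 1.32 and 30.8. Sftpd, another surfactant gene, had medians of 1914 and 1964, and Napsa, a protease of alveolar cells, 252 and 502. Sftpb, also a surfactant gene, had medians of 22.0 and 156, with overlap. Foxj1 went the other way, with medians of 105 and 27.1 and no overlap. By the rule given below, Sftpb was called higher and Foxj1 lower among these 6 genes. Over all genes 6.20% were called higher and 3.97% lower. The summed level of 9 epithelial genes was 149996 to 196882 in CTL and 218281 to 397809 in KD tumors, without overlap. The sum of 12 skeletal muscle genes was 2698 to 13344 against 5973 to 99291. Of these 12, 11 were called higher in KD, against 6.20% of all genes. KD replicate 1 stood apart from the other KD tumors for many chains, so the main counts are also given without it.

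Chains of types I, V, VI, VII and XII fell in KD tumors, while chains of types X and XIV rose and the main type IV pair did not pass. A chain is said to rise or fall where its adjusted p, corrected over all 15687 genes, was under 0.05, and it is called where its mean also differed by more than 1 on the log2 scale. By that rule 6 chains were called lower (Col6a1, Col6a2, Col7a1, Col12a1, Col23a1 and Col26a1) and 4 higher (Col10a1, Col14a1, Col11a2 and Col4a3). Of all genes, 3.97% were called lower and 6.20% higher. By the adjusted p alone 13 chains fell and 4 rose, where 20.7% of all genes fell and 21.1% rose, and 20 chains passed in neither direction. The median log2 fold change of the 37 chains was -0.33, and that of all genes was 0.01.

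**Figure D1:**
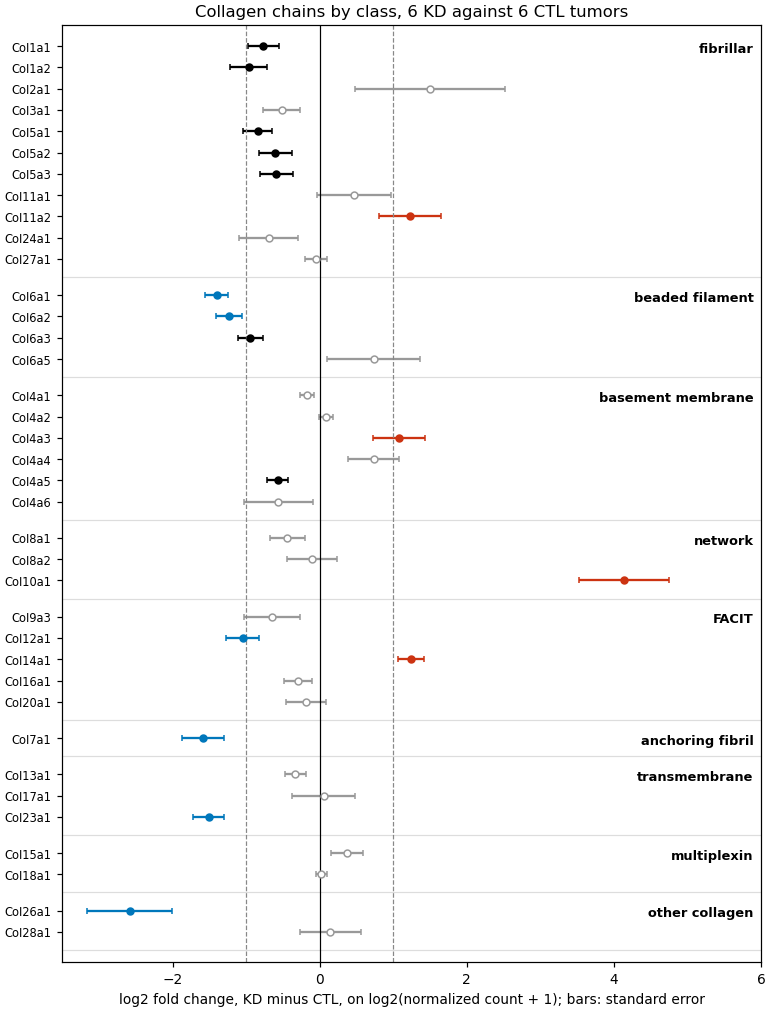
Log2 fold change (KD minus CTL) of each of the 37 chains by class, with the standard error from limma as bars and 6 tumors per group. Blue and red points are called lower and higher, black points passed the adjusted p alone and open grey points did not; dashed lines mark -1 and 1. Col6a1, Col6a2, Col7a1, Col23a1, Col12a1 and Col26a1 lie left of -1 and Col10a1 lies far to the right at 4.14.

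Every KD tumor lay below every CTL tumor for 4 of the 37 chains and above for 2. Of all genes, 10.9% and 10.6% were separated in these directions. The count of lower chains is close to that share, and the count of higher chains is below it. The 4 lower ones were Col6a1 (ENSMUSG00000001119, chr10:76708792-76726168), Col6a2 (ENSMUSG00000020241, chr10:76595762-76623630), Col7a1 (ENSMUSG00000025650, chr9:108953586-108984875) and Col23a1 (ENSMUSG00000063564, chr11:51289920-51583918). The 2 higher ones were Col14a1 (ENSMUSG00000022371, chr15:55307750-55520803) and Col10a1 (ENSMUSG00000039462, chr10:34389981-34397085), with positions in GRCm38. Without KD replicate 1, 9 chains were called lower and 3 higher, where 734 of all 15687 genes were called lower and 979 higher. By the adjusted p alone 17 chains fell and 4 rose without it, where 3423 of all genes fell and 3508 rose. The median over the chains was then -0.47, against -0.00036 over all genes. KD replicate 1 was singled out from these same values, as the highest KD tumor for 26 of the 37 chains. Leaving it out therefore lowers most KD means by the way it was chosen.

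Collagen chains took 0.984%, 1.41% and 1.47% of all normalized counts in the CTL tumors (lowest, median and highest). In the KD tumors they took 0.577%, 0.705% and 1.44%. The highest KD value was that of KD replicate 1, and the next was 0.941%, below every CTL tumor.

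Per kilobase of exon, Col1a1, Col1a2 and Col3a1 together made up 58.6% of the mean collagen sum in CTL and 55.8% in KD tumors. Col1a1, the main chain of type I collagen, ranked first in both groups with means of 14097 and 8680.4 normalized counts per kilobase. Col6a1 ranked 4 in CTL and 6 in KD tumors, and Col18a1, a multiplexin of basement membranes, ranked 5 and 4. Col14a1 moved from rank 16 to rank 11.

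The beaded filament share of the collagen sum per kilobase was 13.7% to 16.1% in CTL tumors and 8.78% to 11.1% in KD tumors, without overlap. The FACIT share was 2.58% to 3.63% and 3.96% to 4.91%, higher in every KD tumor. These shares are descriptions without a test, and a share also moves when the others move. The FACIT sum itself overlapped between groups, at 963 to 1661 against 911 to 1761 normalized counts per kilobase. The fibrillar, basement membrane, network and multiplexin shares overlapped, with medians of 64.5% and 60.4%, 7.45% and 11.1%, 1.81% and 2.19%, and 6.86% and 12.05% in CTL and KD tumors.

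**Figure D2:**
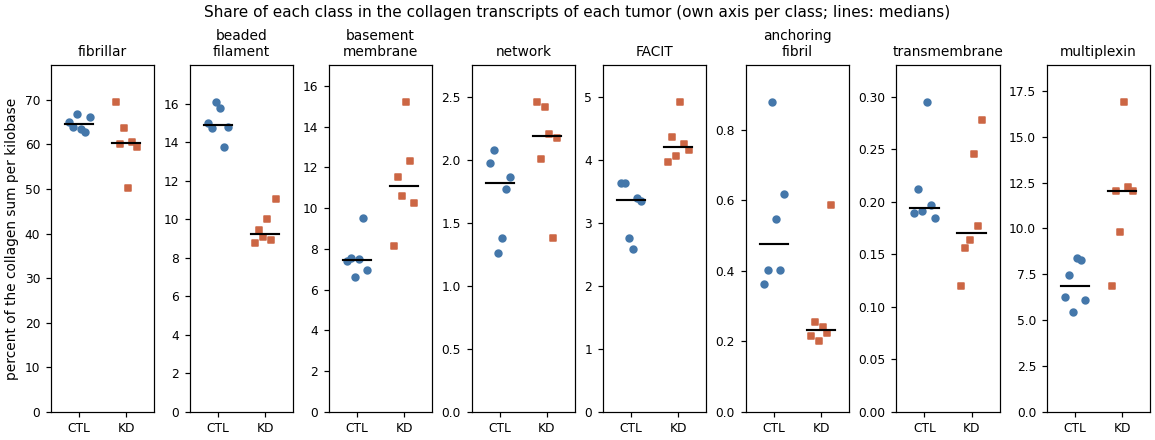
Percent of each tumor's collagen sum per kilobase of exon that falls to each of 8 classes, with 1 point per tumor (circles CTL, squares KD), lines at the group medians and an axis from 0 of its own for each class. The beaded filament panel shows 13.7% to 16.1% in CTL and 8.78% to 11.1% in KD tumors, and the FACIT panel the opposite order.

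Fibrillar chains. Of the 11 fibrillar chains 5 fell (Col1a1, Col1a2, Col5a1, Col5a2 and Col5a3), 1 rose (Col11a2) and 5 did not pass. Over all genes 20.7% fell and 21.1% rose, and 3.97% were called lower. By limma 0 fibrillar chains were called lower, and 0 also by edgeR or past -1 at an unadjusted p under 0.05. The median log2 fold change of the fibrillar chains was -0.59. In edgeR on recovered reads 3 fell (Col1a1, Col1a2 and Col5a1). The falling chains belong to types I and V, which assemble into the same fibrils, type V chains controlling fibril diameter. Of the chains of types II, III, XI, XXIV and XXVII 0 fell, and without KD replicate 1 Col3a1 and Col24a1 did.

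Col1a1 had 70091, 91148 and 120652 in the CTL tumors and 32352, 51403 and 94251 in the KD tumors (lowest, median and highest normalized counts). The groups overlapped, since KD replicate 1 lay among the CTL tumors and the other 5 lay below all of them. Col1a1 fell, with a log2 fold change of -0.76 ± 0.22 (SE), adjusted p = 0.0108, or 1.62-fold on the means.

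Col1a2, the second chain of type I, had 52371, 80087 and 90176 in the CTL tumors and 21032, 34844 and 80056 in the KD tumors. All 6 KD tumors lay below the CTL median, and KD replicate 1 was the one that overlapped. It had a log2 fold change of -0.97 ± 0.25 (SE), adjusted p = 0.00626, and without KD replicate 1 the change was -1.19 and was called.

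Col3a1, the only chain of type III collagen, had 34510.2, 48188 and 57157 in the CTL tumors and 19206, 29441 and 69588 in the KD tumors. KD replicate 1 held the highest value of all 12 tumors. The log2 fold change of -0.52 ± 0.25 (SE), adjusted p = 0.114 did not pass, and without KD replicate 1 it was -0.74 with an adjusted p of 0.00361.

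Col5a1 had 7678, 11658 and 13339 in the CTL tumors and 4218, 5331 and 10176 in the KD tumors, with all 6 KD tumors below the CTL median. It had a log2 fold change of -0.84 ± 0.20 (SE), adjusted p = 0.00315. Col5a2 had 6047, 9544 and 10224 in the CTL tumors and 3429, 5601 and 10995 in the KD tumors, with KD replicate 1 again the highest of all 12 tumors. It fell (log2 fold change of -0.60 ± 0.22 (SE), adjusted p = 0.0431). Col5a3 had 983, 1748 and 2134 in the CTL tumors and 816, 1026 and 2039 in the KD tumors, with overlap, and fell (log2 fold change of -0.59 ± 0.22 (SE), adjusted p = 0.0458).

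Col11a1 and Col11a2 are chains of the type XI fibril that seeds cartilage fibrils. Col11a2 had 18.9, 34.7 and 39.0 in the CTL tumors and 35.5, 65.1 and 316 in the KD tumors. All KD tumors lay above the CTL median, and KD replicate 1 lay far above the next, at 76.4. It had a log2 fold change of 1.23 ± 0.42 (SE), adjusted p = 0.0309, and 0.81 without KD replicate 1, which is not called. Col11a1 had 138, 299 and 769.9 in the CTL tumors and 199, 348 and 1561 in the KD tumors and did not pass (log2 fold change of 0.46 ± 0.50 (SE), adjusted p = 0.494).

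Col2a1, the main cartilage collagen, was at or under 3 reads in all 6 CTL tumors and in 4 of 6 KD tumors. The exceptions were KD replicate 1 at 166 normalized counts and a second KD tumor at 7.29. Col24a1 had 47.6, 59.9 and 88.5 in the CTL tumors and 19.8, 37.2 and 155 in the KD tumors and did not pass. Without KD replicate 1 it was called lower at -1.09. Col27a1 had 1391, 2102 and 2837 in the CTL tumors and 1489.8, 2039 and 2480.2 in the KD tumors and did not pass (log2 fold change of -0.050 ± 0.15 (SE), adjusted p = 0.819).

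The fibroblast markers went in both directions: of 15 listed genes 6 fell and 3 rose, where 20.7% of all genes fell and 21.1% rose. Their summed level was 10803 to 18069 in CTL and 7838 to 14985 in KD tumors, with overlap. No gene of that list was at 0 in any tumor. Lrrc15, a marker of matrix-producing tumor fibroblasts, had 2230.2, 3831 and 5094 in the CTL tumors and 790.2, 1583 and 1660.5 in the KD tumors, and Pi16, a marker of resting fibroblasts, had 74.9, 169 and 194 in the CTL tumors and 147, 407 and 789 in the KD tumors. Lrrc15 fell (log2 fold change of -1.40 ± 0.20 (SE), adjusted p = 8.81e-05) and Pi16 rose (log2 fold change of 1.34 ± 0.36 (SE), adjusted p = 0.00886). Thy1, Twist1, Twist2, Prrx1 and Osr1 also fell, and Cd34 and Clec3b also rose. Pdgfra, Pdgfrb, Fap, Pdpn, Mfap5 and Il33 did not pass. With the mean log2 level of the fibroblast list as a covariate, Col1a1 stood at -0.36 (adjusted p = 0.0148) and Col3a1 at -0.053 (adjusted p = 0.789). Col1a2 at -0.49 (adjusted p = 0.00481) and Col5a1 at -0.47 (adjusted p = 0.00147) passed in that fit. Col5a2 at -0.18 (adjusted p = 0.216) and Col5a3 at -0.24 (adjusted p = 0.3002) did not. Genes of this covariate themselves differed between the groups, so the fit cannot tell fibroblast content and knockdown apart. The part of fibroblasts in the collagen values was not tested.

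**Figure D3:**
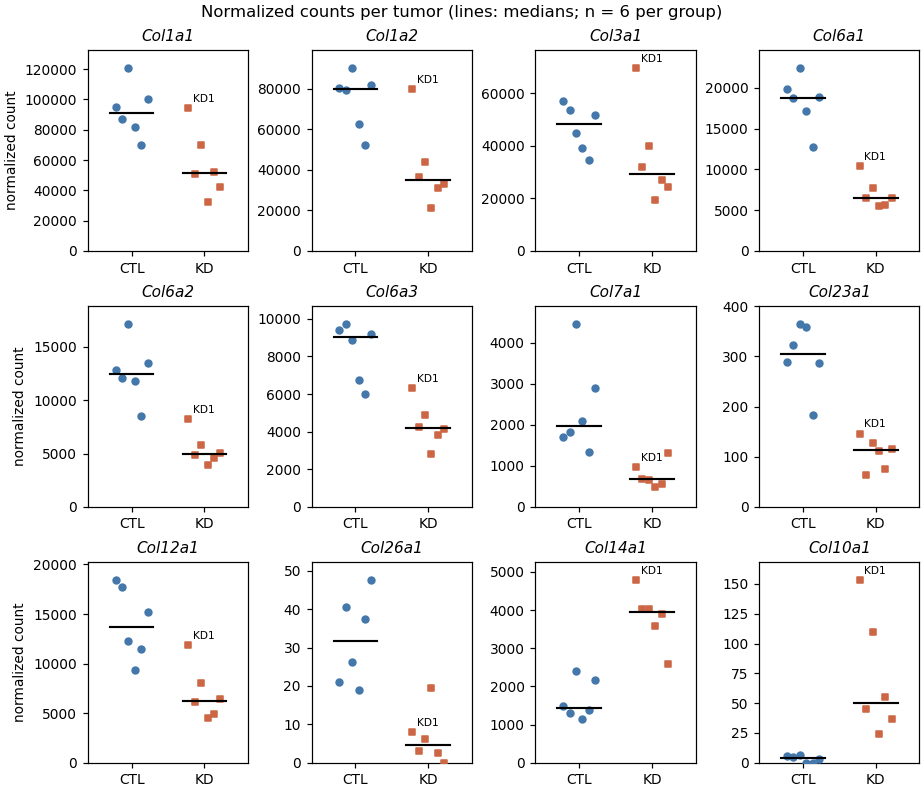
Normalized counts of 12 chains in each tumor, circles for CTL and squares for KD, with lines at the medians of 6 tumors, axes from 0 and KD replicate 1 marked. For Col1a1, Col1a2 and Col3a1 KD replicate 1 lies at the level of the CTL tumors, while for Col6a1, Col6a2, Col7a1 and Col23a1 all 6 KD tumors lie below the lowest CTL tumor, and for Col14a1 and Col10a1 above the highest.

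Basement membrane chains. Of the 6 type IV chains, 1 fell (Col4a5), 1 was called higher (Col4a3) and 4 did not pass, and their median log2 fold change was -0.042. Over all genes 20.7% fell and 21.1% rose, and 6.20% were called higher. The counts of type IV chains that fell or rose are close to the shares of all genes that did. The abundant pair Col4a1 and Col4a2, which form the usual trimer of every basement membrane, did not pass. Its genes lie head to head on chromosome 8, where the 2 annotated starts are 21 bases apart and the first exons share 22 bases.

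The window of 250 bases before to 50 bases after the start of Col4a2 is printed because it holds the starts of both chains. It is chr8:11312555-11312854 of GRCm38.p6, plus strand, from RefSeq, and capitals mark the 22 bases from the start of Col4a2 to that of Col4a1, which is read off the opposite strand.
Col4a2: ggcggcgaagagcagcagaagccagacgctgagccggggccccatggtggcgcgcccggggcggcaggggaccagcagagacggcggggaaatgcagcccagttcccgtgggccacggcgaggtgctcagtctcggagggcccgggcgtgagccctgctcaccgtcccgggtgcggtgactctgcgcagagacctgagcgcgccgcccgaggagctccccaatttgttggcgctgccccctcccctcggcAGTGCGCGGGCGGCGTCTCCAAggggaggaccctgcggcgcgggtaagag

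Col4a1 had 12384, 14225 and 15067 in the CTL tumors and 9341, 12382 and 15013 in the KD tumors. The groups overlapped and the log2 fold change of -0.17 ± 0.097 (SE), adjusted p = 0.171 did not pass. Col4a2 had 6737, 7892 and 8086 in the CTL tumors and 6083, 8148 and 9812 in the KD tumors and did not pass (log2 fold change of 0.091 ± 0.096 (SE), adjusted p = 0.485). The genes of chromosome 8 had a median log2 fold change of -0.19, the second lowest of the chromosomes, and after chromosome medians were removed Col4a1 stood at 0.024 (adjusted p = 0.875) and Col4a2 at 0.29 (adjusted p = 0.0358).

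The ratio of the pair was separated between groups, although neither chain was. The log2 ratio of Col4a1 to Col4a2 counts was 0.839 to 0.905 in the CTL tumors and 0.590 to 0.630 in the KD tumors, with means of 0.876 ± 0.0243 and 0.612 ± 0.0164 (SD, n = 6 each). The groups did not overlap, and the difference of the means, -0.26, was over 10 times either SD. KD replicate 1, at 0.613, lay within the other KD tumors. The ratios of chains are descriptions without a test.

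Col4a5, a chain of kidney, lung and smooth muscle basement membranes, had 572, 895 and 995 in the CTL tumors and 452, 531 and 734 in the KD tumors. All 6 KD tumors lay below the CTL median, with overlap, and it fell (log2 fold change of -0.57 ± 0.15 (SE), adjusted p = 0.00596). Its neighbour Col4a6, whose start lies 1309 bases away on chromosome X, had 7.78, 16.1 and 32.9 in the CTL tumors and 4.90, 10.9 and 36.3 in the KD tumors and did not pass.

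Col4a3 and Col4a4, chains of the glomerular and alveolar basement membranes, also lie head to head, with starts 72 bases apart on chromosome 1. Both were rare. Col4a3 had 3.89, 9.22 and 14.1 in the CTL tumors and 9.61, 20.5 and 31.3 in the KD tumors. Col4a4 had 5.00, 11.3 and 23.8 in the CTL tumors and 10.4, 19.9 and 27.4 in the KD tumors. All KD tumors lay above the CTL median of Col4a3, which was called higher (log2 fold change of 1.08 ± 0.36 (SE), adjusted p = 0.0246). Up to 5.65% of its exon bases are shared with a gene on the other strand, and its call was lost in several alternatives. Col4a4 did not pass (log2 fold change of 0.73 ± 0.35 (SE), adjusted p = 0.110). Endothelial markers stood higher beside these chains: 8 of 12 rose, where 21.1% of all genes rose. By limma or edgeR 0 of these markers were called, and 0 were past 1 on the log2 scale at an unadjusted p under 0.05. Their sum was 3849 to 4734 in CTL and 4733 to 7509 in KD tumors. Their part in the type IV values was not tested.

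**Figure D4:**
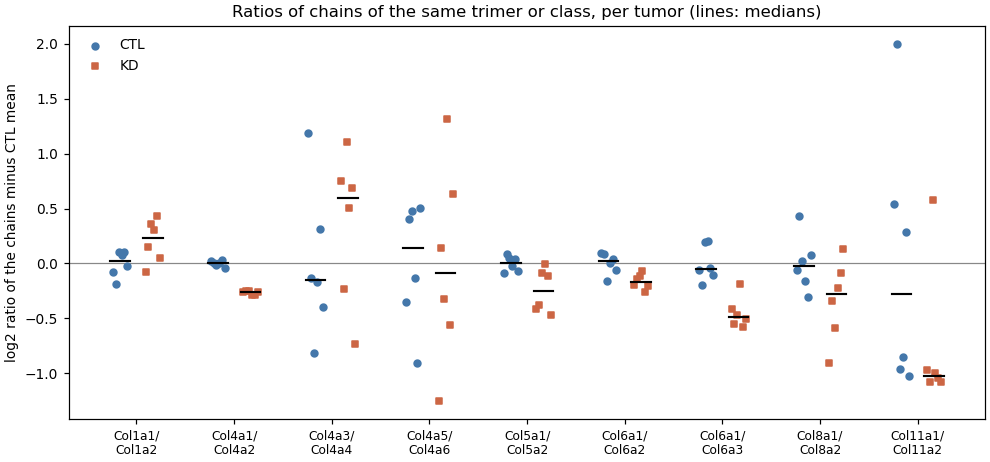
Log2 ratio of the normalized counts of 9 chain pairs in each tumor, minus the CTL mean of that pair, with circles for CTL, squares for KD and lines at the medians of 6. For Col4a1/Col4a2 the 6 KD tumors form a tight group about 0.26 below the CTL tumors, while the other 8 pairs overlap.

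The remaining 8 pairs overlapped between groups. Their counts are not corrected for length, so the size of a ratio does not give the proportion of the chains. The log2 ratio of Col1a1 to Col1a2, which join 2 to 1 in type I collagen, had medians of 0.341 in CTL and 0.545 in KD tumors. That of Col6a1 to Col6a3 had medians of 1.09 and 0.653, and their ranges, 0.943 to 1.35 and 0.561 to 0.950, overlapped at their ends. For Col4a3 to Col4a4, both rare, the medians were -0.465 and 0.279, for Col4a5 to Col4a6 5.69 and 5.46, for Col8a1 to Col8a2 4.23 and 3.97, and for Col11a1 to Col11a2 2.99 and 2.25. For Col5a1 to Col5a2 the medians were 0.309 and 0.0532, and for Col6a1 to Col6a2 0.565 and 0.375.

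Network chains. Of the 3 network chains Col10a1 was called higher and Col8a1 and Col8a2 did not pass, where 6.20% of all genes were called higher. Col10a1 is the collagen of hypertrophic cartilage and is also known from tumor stroma. It had 0, 4.13 and 6.80 in the CTL tumors and 24.5, 50.1 and 153 in the KD tumors. No KD tumor reached down to the highest CTL tumor, and 2 of 6 CTL tumors held no read. It had a log2 fold change of 4.14 ± 0.62 (SE), adjusted p = 0.000106 (exact two-sided permutation p = 0.00216, the smallest that 6 against 6 tumors can give). The size depended on the setting at such low counts and ranged from 2.59 to 5.14 over the alternatives that kept all tumors, and from 3.79 to 4.38 when single tumors were left out.

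Its promoter window is shown because the chain was called higher and its groups did not overlap. It is chr10:34389731-34390030 of GRCm38.p6, plus strand, from RefSeq, and capitals mark the TATAAA motif, 32 to 27 bases before the start.
Col10a1: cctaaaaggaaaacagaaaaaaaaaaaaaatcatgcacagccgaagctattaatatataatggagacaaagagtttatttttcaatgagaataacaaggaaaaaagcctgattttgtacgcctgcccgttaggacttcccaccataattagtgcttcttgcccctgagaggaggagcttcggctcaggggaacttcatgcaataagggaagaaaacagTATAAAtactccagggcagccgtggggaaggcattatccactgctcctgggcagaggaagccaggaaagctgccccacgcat

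Of 8 listed genes of cartilage and bone 0 rose by limma, 0 at an unadjusted p under 0.05 and 1 by edgeR, and 1 fell. Over all genes 21.1% rose and 20.7% fell by limma. Ibsp and Sp7, which mark bone-forming cells, were each at 0 in at least 1 tumor, and KD replicate 1 had 1171 normalized counts of Ibsp (next in KD 39.6) and 36.3 of Sp7 (next in KD 3.46). It also had the highest values of Alpl, a phosphatase of mineralizing cells, at 196 (next in KD 59.3), and of Acan, the cartilage proteoglycan, at 137 (next in KD 59.7). Matn3, at 25.2 (next in KD 17.7), and Runx2, at 1025 (next in KD 835), were its highest within KD. Other genes of the list went the other way. Its Ihh value, 21.2, was the lowest of all 12 tumors, and the KD mean of Sox9 was 3150 with it and 3227.5 without it. The part of such cells in the Col10a1 values was not tested.

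Col8a1, a chain of vessel walls and of the corneal sheet, had 3662, 5269 and 6761 in the CTL tumors and 2254, 3433 and 6974 in the KD tumors and did not pass (log2 fold change of -0.44 ± 0.24 (SE), adjusted p = 0.163). Col8a2 had 214, 261 and 352 in the CTL tumors and 125, 207 and 687 in the KD tumors and did not pass (log2 fold change of -0.10 ± 0.33 (SE), adjusted p = 0.834).

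FACIT chains. The 2 abundant FACIT chains that decorate type I fibrils went in opposite directions. Col14a1 was called higher and Col12a1 lower, and Col16a1, Col20a1 and Col9a3 did not pass. Over all genes 21.1% rose and 20.7% fell, 6.20% being called higher and 3.97% lower. Col14a1 and Col12a1 are large proteins of fibronectin type III and von Willebrand A domains with a short collagenous tail. The class median was -0.29.

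Col14a1, found in mature dense tissue such as tendon and skin, had 1152, 1432 and 2404 in the CTL tumors and 2597, 3955 and 4787 in the KD tumors. Every KD tumor lay above every CTL tumor. It rose by a log2 fold change of 1.24 ± 0.18 (SE), adjusted p = 9.13e-05 (exact permutation p = 0.00216), or 2.31-fold on the means, and by 1.17 without KD replicate 1.

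Col12a1, found in tissue under load and in tumor stroma, had 9373, 13719 and 18422 in the CTL tumors and 4555, 6253 and 11912 in the KD tumors. All 6 KD tumors lay below the CTL median, with only KD replicate 1 reaching the CTL range. It fell (log2 fold change of -1.05 ± 0.22 (SE), adjusted p = 0.00176), and by 1.22 on the log2 scale without KD replicate 1. With the fibroblast covariate it stood at -0.69 (adjusted p = 0.00632) and was not called, while Col14a1 stood at 1.46 (adjusted p = 4.09e-05).

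Col16a1 had 890.3, 1319 and 1609 in the CTL tumors and 756, 918 and 1887 in the KD tumors and did not pass (log2 fold change of -0.29 ± 0.20 (SE), adjusted p = 0.253). KD replicate 1 held the highest value, and without it Col16a1 fell (-0.47, adjusted p = 0.0170). Col9a3 and Col20a1 were rare, between 10.4 and 64.2 normalized counts in every tumor, with log2 fold changes of -0.65 and -0.19. Beside Col14a1, 11 of 12 skeletal muscle genes rose, and 3 of 5 adipocyte genes (Fabp4, Cidec and Pparg), of which Cidec alone was without overlap. Over all genes 21.1% rose. The adipocyte genes Adipoq (adjusted p = 0.151) and Cfd (adjusted p = 0.0852) did not pass. The adipocyte sum, most of it Pparg, was 1121 to 1651 in CTL and 1655 to 2657 in KD tumors. Their part in the Col14a1 values was not tested.

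Beaded filament chains. Type VI collagen, a filament found around cells and at the rim of basement membranes, was lower in KD tumors for 3 of its 4 listed chains. Col6a1 and Col6a2 were called lower, Col6a3 fell and Col6a5 did not pass. Over all genes 20.7% fell and 3.97% were called lower. Col6a1, Col6a2 and Col6a3 form a single trimer.

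Col6a1 had 12798, 18809 and 22411 in the CTL tumors and 5462, 6433 and 10439.6 in the KD tumors. Every KD tumor lay below every CTL tumor, KD replicate 1 being the highest of the KD group. It fell (log2 fold change of -1.40 ± 0.16 (SE), adjusted p = 9.28e-06; exact permutation p = 0.00216), or 2.61-fold on the means.

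Col6a2 had 8549, 12421 and 17143 in the CTL tumors and 3926, 4982 and 8192 in the KD tumors, again with no overlap, and fell (log2 fold change of -1.23 ± 0.17 (SE), adjusted p = 5.95e-05). Col6a3 had 5978, 9046 and 9723 in the CTL tumors and 2827, 4205 and 6322 in the KD tumors, with 1 KD tumor, replicate 1, in the CTL range. It fell (log2 fold change of -0.95 ± 0.17 (SE), adjusted p = 0.000491), and without KD replicate 1 it was called at -1.06.

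With the fibroblast covariate Col6a1 stood at -1.10 (adjusted p = 6.59e-07), Col6a2 at -0.91 (adjusted p = 9.51e-06) and Col6a3 at -0.63 (adjusted p = 0.000130). The part of fibroblasts in these values was not tested. Col6a5 was rare, with medians of 5.42 in CTL and 9.09 in KD tumors. Its highest value was 99.8 in KD replicate 1 and the next in KD was 9.61 (log2 fold change of 0.73 ± 0.63 (SE), adjusted p = 0.384).

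Promoter windows are shown for Col6a1 and Col6a2, neighbours on the minus strand of chromosome 10 that fell together, and for Col7a1 and Col23a1, which also fell without overlap. RefSeq gives a window for 29 of the 37 chains in GRCm38.p6. Capitals mark matches, on either strand, to the CCAAT box spelled CCAAT, the GC box spelled GGGCGG, the TATA box spelled TATAAA and the AP-1 motif spelled TGANTCA, which share no bases here.
Col6a1 (chr10:76725995-76726294, minus strand): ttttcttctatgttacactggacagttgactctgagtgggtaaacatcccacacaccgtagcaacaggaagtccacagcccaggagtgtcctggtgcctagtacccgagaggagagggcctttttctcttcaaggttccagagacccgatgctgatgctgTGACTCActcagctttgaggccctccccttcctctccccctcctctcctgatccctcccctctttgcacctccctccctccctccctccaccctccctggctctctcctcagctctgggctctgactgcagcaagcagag
Col6a2 (chr10:76623581-76623880, minus strand): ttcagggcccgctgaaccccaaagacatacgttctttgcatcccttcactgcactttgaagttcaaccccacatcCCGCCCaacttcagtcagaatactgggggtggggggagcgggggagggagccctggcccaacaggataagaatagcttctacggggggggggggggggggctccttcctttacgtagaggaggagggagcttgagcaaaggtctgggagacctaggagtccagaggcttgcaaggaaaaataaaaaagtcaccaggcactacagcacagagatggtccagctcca
Col7a1 (chr9:108953336-108953635, plus strand): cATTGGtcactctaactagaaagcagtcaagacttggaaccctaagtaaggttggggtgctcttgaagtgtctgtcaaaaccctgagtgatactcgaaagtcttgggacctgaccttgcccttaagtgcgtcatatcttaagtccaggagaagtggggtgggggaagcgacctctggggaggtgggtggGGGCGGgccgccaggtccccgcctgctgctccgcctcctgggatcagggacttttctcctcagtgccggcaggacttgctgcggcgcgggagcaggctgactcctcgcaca
Col23a1 (chr11:51289670-51289969, plus strand): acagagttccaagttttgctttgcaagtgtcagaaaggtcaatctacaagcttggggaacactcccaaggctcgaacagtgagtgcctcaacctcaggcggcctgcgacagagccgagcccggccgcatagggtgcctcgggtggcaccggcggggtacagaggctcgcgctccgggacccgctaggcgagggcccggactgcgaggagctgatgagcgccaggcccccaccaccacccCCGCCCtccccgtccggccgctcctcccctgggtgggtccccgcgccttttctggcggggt

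The RefSeq start of Col6a1 lies 124 bases from the start annotated by GENCODE. The Col6a1 window holds TGANTCA, 90 to 84 bases before the start, a motif in 3.45% of the chain windows (1 of 29) and 7.81% of all 32851 mouse windows. The Col6a2 window holds GGGCGG, 175 to 170 bases before the start, as do those of Col7a1 (61 to 56) and Col23a1 (11 to 6). GGGCGG was found in 18 of 29 chain windows (62.1%) and in 35.7% of all windows. CCAAT was found in 10 chain windows (34.5%, against 37.4% of all) and TATAAA in 5 (17.2%, against 13.6%). None of the 4 motifs is in all 4 of these windows. The matches are descriptions of these letters and no test was made.

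Anchoring fibril, transmembrane and multiplexin chains. Col7a1 forms the anchoring fibrils that tie epithelium to the matrix below. It had 1341, 1964 and 4451 in the CTL tumors and 481, 665 and 1322 in the KD tumors. The groups did not overlap, although the highest KD tumor came within 20 normalized counts of the lowest CTL tumor. It fell (log2 fold change of -1.59 ± 0.29 (SE), adjusted p = 0.000499; exact permutation p = 0.00216), or 3.07-fold on the means.

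Col23a1, a transmembrane collagen of epithelial cells, had 184, 305 and 365 in the CTL tumors and 63.5, 113 and 146 in the KD tumors. Every KD tumor lay below every CTL tumor, and it fell (log2 fold change of -1.51 ± 0.21 (SE), adjusted p = 7.05e-05). Col13a1, a transmembrane collagen of muscle and cell adhesions, had 89.0, 109 and 129.6 in the CTL tumors and 65.5, 87.5 and 101 in the KD tumors and did not pass (log2 fold change of -0.33 ± 0.14 (SE), adjusted p = 0.0727). Col17a1, the hemidesmosome collagen of the epidermis, had 27.2, 62.4 and 159 in the CTL tumors and 45.8, 55.3 and 158 in the KD tumors and did not pass (log2 fold change of 0.052 ± 0.43 (SE), adjusted p = 0.939).

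Epithelial genes rose in the same tumors in which Col7a1 and Col23a1 fell, 8 of 9 listed and 6 of them called. Over all genes 21.1% rose and 6.20% were called higher. Krt19 had 17535, 19529 and 25945 in the CTL tumors and 36104, 72256 and 87638 in the KD tumors and rose (log2 fold change of 1.65 ± 0.19 (SE), adjusted p = 1.15e-05). Of 7 skin epidermis genes 2 fell and 0 rose by limma, by edgeR or at an unadjusted p under 0.05. Over all genes 20.7% fell and 21.1% rose by limma. The sums of the skin epidermis genes overlapped at 1228 to 4044 and 1666 to 3875. Lor, a cornified envelope protein, was the called one, with 62.0, 84.3 and 116 in the CTL tumors and 12.2, 18.2 and 51.9 in the KD tumors.

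The multiplexins did not pass. Col18a1, source of the fragment endostatin, had 16871, 17897 and 22009.9 in the CTL tumors and 17069, 19084 and 21442 in the KD tumors, the smallest change of the 37 (log2 fold change of 0.022 ± 0.079 (SE), adjusted p = 0.853). Col15a1, of vessel and muscle basement membranes, had 1075, 1575 and 2021 in the CTL tumors and 1341, 1769 and 3750.5 in the KD tumors (log2 fold change of 0.37 ± 0.22 (SE), adjusted p = 0.189), with KD replicate 1 the highest. With the fibroblast covariate Col15a1 stood at 0.72 (adjusted p = 0.00398) and passed.

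Of the 2 chains placed in no class, Col26a1 was called lower. It had 18.9, 31.8 and 47.6 in the CTL tumors and 0, 4.69 and 19.6 in the KD tumors, with 2 of 6 KD tumors at or under 3 reads and 1 KD tumor in the CTL range. It had a log2 fold change of -2.58 ± 0.58 (SE), adjusted p = 0.00259. Col28a1, with medians of 37.0 and 37.8 in CTL and KD tumors, overlapped and did not pass (log2 fold change of 0.14 ± 0.41 (SE), adjusted p = 0.812).

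KD replicate 1 carried more collagen than the other KD tumors. It was the highest of the 6 KD tumors for 26 of the 37 chains and the lowest for 0, while KD replicate 6 was lowest for 13 and KD replicate 4 for 12. Among CTL tumors, replicate 5 was lowest for 12 chains and replicate 4 for 11. KD replicate 1 also had the highest sum of 10 macrophage genes, 66718, where the other 11 tumors had 24708 to 37733 in KD and 27619.5 to 37653 in CTL. Most of that sum was Lyz2, at 40990 (next in KD 17199). C1qa and C1qc of KD replicate 1, at 6033 and 4282, lay within the CTL range, and another KD tumor had the highest Cd163. The other listed macrophage genes were highest in KD replicate 1. The fibroblast sum of KD replicate 1 was the highest and its epithelial sum the lowest of the KD group. Its values of the bone and cartilage genes Ibsp, Alpl and Acan, given beside Col10a1, were the highest of all 12 tumors. Its Sp7 value was within the CTL range, and its Ihh value was the lowest of all 12 tumors. The part of these cells in its collagen values was not tested.

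**Figure D5:**
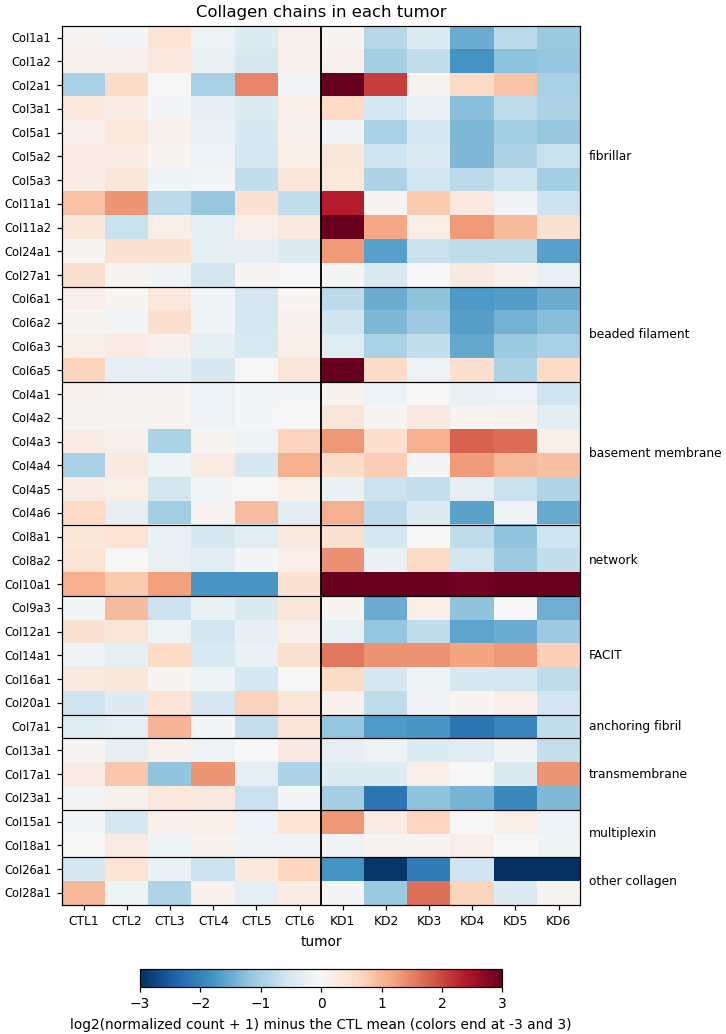
Log2(normalized count + 1) of each chain minus its CTL mean, with the 37 chains in rows by class, the 12 tumors in columns, and colors that end at -3 and 3. KD replicate 1 is near white or red for the fibrillar chains where the other 5 KD tumors are blue, but is blue with them for Col6a1, Col6a2, Col7a1 and Col23a1, and all 6 are red for Col14a1 and Col10a1.

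The genes that fold, process and bind collagen were read from the same fit. Over all genes, for comparison with the lists that follow, 21.1% rose and 20.7% fell, and 6.20% were called higher and 3.97% lower. Of 24 genes for assembly in the endoplasmic reticulum 6 rose and 6 fell, close to the shares over all genes. By limma or edgeR 0 were called, and 0 were past 1 on the log2 scale at an unadjusted p under 0.05. Their median log2 fold change was 0.01. Those that rose were P4hb and P4ha2, subunits of prolyl hydroxylase, Colgalt2, a galactosyltransferase, Sec24d and Mia2, which help collagen leave the endoplasmic reticulum, and Tmem38b, a channel. Those that fell were P4ha3, another hydroxylase subunit, P3h3 and P3h4, of the prolyl 3-hydroxylase family, Fkbp10 and Fkbp14, prolyl isomerases, and Serpinh1, the collagen chaperone. Serpinh1 had 9969, 13078 and 15009 in the CTL tumors and 6474, 8804 and 10869.5 in the KD tumors and fell (log2 fold change of -0.58 ± 0.13 (SE), adjusted p = 0.00209), and P4ha3 had 826, 932 and 1114 in the CTL tumors and 429, 562 and 682 in the KD tumors and fell (log2 fold change of -0.72 ± 0.11 (SE), adjusted p = 0.000123).

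Of 13 listed genes for propeptide cleavage and cross-linking 7 fell and 0 rose by limma, by edgeR or at an unadjusted p under 0.05, with 3 called lower and a median of -0.42. Tll1, a procollagen C-proteinase, had 274, 413 and 553 in the CTL tumors and 67.4, 89.7 and 127 in the KD tumors and fell (log2 fold change of -2.12 ± 0.20 (SE), adjusted p = 1.81e-06). Loxl4, a lysyl oxidase that cross-links fibrils, had 477, 597 and 743 in the CTL tumors and 129, 159 and 295 in the KD tumors and fell (log2 fold change of -1.78 ± 0.17 (SE), adjusted p = 2.37e-06). Pcolce2, an enhancer of the C-proteinase, had 655, 737 and 873 in the CTL tumors and 204, 265 and 376 in the KD tumors and fell (log2 fold change of -1.44 ± 0.16 (SE), adjusted p = 8.10e-06). All 3 were separated between groups.

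Of 20 fibril-binding matrix proteins 9 fell and 3 rose, 2 were called in each direction, and the median was -0.57. Their summed level did not overlap, at 280992 to 376506 in CTL and 142510 to 266229 in KD tumors. Fn1, fibronectin, had 83913, 120635 and 159196 in the CTL tumors and 31846, 52146 and 92640.1 in the KD tumors and fell (log2 fold change of -1.19 ± 0.22 (SE), adjusted p = 0.000725), and Tnc, tenascin-C, had 15396, 25256 and 29359.6 in the CTL tumors and 7456, 10097 and 16697 in the KD tumors and fell (log2 fold change of -1.19 ± 0.18 (SE), adjusted p = 0.000102). Tnxb, tenascin-X, which binds fibrils of resting connective tissue, had 73.2, 119 and 190.4 in the CTL tumors and 455, 571 and 767 in the KD tumors and rose without overlap (log2 fold change of 2.24 ± 0.21 (SE), adjusted p = 2.37e-06). Comp, a cartilage and tendon protein that binds fibrils, had medians of 22.2 and 132 in CTL and KD tumors, with overlap, and rose (log2 fold change of 1.94 ± 0.75 (SE), adjusted p = 0.0497); without KD replicate 1 its adjusted p was 0.0954.

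Of 12 listed collagen receptors 3 fell and 2 rose (Itga1 and Itga2, integrin subunits for type IV and type I collagen), and the median was -0.11. These counts are close to the shares over all genes, 20.7% and 21.1%. Adgrg6, an adhesion receptor reported to bind type IV collagen, was the called one, with 1369, 1695 and 1938 in the CTL tumors and 671, 752 and 955 in the KD tumors and a log2 fold change of -1.07 ± 0.11 (SE), adjusted p = 2.98e-06.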

How the data were processed

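RNA from 12 snap-frozen tumors (6 CTL, 6 KD) was enriched with oligo(dT) beads and sequenced as paired reads. The authors trimmed with Trimmomatic 0.36, aligned with STAR 2.5.2b to the mouse genome (mm10 in the submitters' processing notes), counted with featureCounts of Subread 1.5.2 and normalized with DESeq2. The deposited signal values are these size-factor normalized counts, 1 column per tumor, not length-corrected; strand use in counting is not given in the sources used here. The smallest step between values gave each tumor's reads (17834745 to 32419578 on listed genes), all within 0.1 of whole numbers. Of the gene IDs 15655 matched GENCODE (99.8%).

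Values were tested with limma 3.58.1 (trended variance, R 4.3.3) on log2(value + 1) over all 15687 genes, with Benjamini-Hochberg adjustment. Calls used adjusted p under 0.05 and a log2 fold change over 1 in size, the study's thresholds. The planned filter (mean of 5) removed 0 genes, since the lowest gene mean was 9.28. Single chains also had an exact two-sided permutation test over all arrangements of the 12 tumors. On simulated data 199 of 200 changed genes were recovered and 0 unchanged ones called (15594 genes). The mean absolute error on the log2 scale was 0.13 there. In the tumors the SE of the chains ran from 0.079 (Col18a1) to 1.02 (Col2a1). How far the simulated recovery holds for smaller changes, rarer chains or chains with a larger SE was not tested. edgeR 4.0.16 on recovered reads was an alternative chosen after seeing the data. Levels per kilobase used the union of GENCODE exons. Deviations from the group mean correlated at -0.27 to 0.10 between tumors with the same replicate number. Tumors with different numbers were not set beside them, and the labels do not say what a number marks. Whether the numbers pair tumors is therefore not settled, and the main fit used no pairing. Nothing says how tumors map to mice, and p-values measure the spread between these tumors. The CTL and KD cells carried different hairpins and were selected after transduction, so a difference between the cell pools cannot be told apart from the knockdown. Median log2 fold changes were 0.39 for genes of chromosome 14 and -0.35 for those of chromosome 19.

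Every chain was accounted for by class. Lowest, median and highest values were given for chains that were called, among the top 3 of their class per kilobase or in a ratio pair, and for some others beside them. Of each gene list the called genes with the largest changes, at most 4 per direction, were named; markers and other genes were named after their values were seen. The members and lists were chosen with earlier results of these data known. Alternatives were other pseudocounts, filters and scalings, no trend, a replicate block, chromosome medians removed, a fibroblast covariate and each tumor left out.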

Additional observations from a re-analysis of the deposited data

Results flagged for a closer look

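Of 74 groups of 6 tumors (37 chains in 2 groups), 9 held a value set apart from the others by more than Dixon's 95% limit for the gap over the range, where chance flags about 1 in 20 groups. In 8 of the 9 the tumor was KD replicate 1, the highest of its group. Among fibrillar chains it had 1561 normalized counts of Col11a1 (next 524), 316 of Col11a2 (next 76.4), 155 of Col24a1 (next 39.6), 166 of Col2a1 (next 7.29) and 2039 of Col5a3 (next 1129). It also had 1887 of Col16a1 (next 1177), 36.3 of Col4a6 (next 15.6) and 99.8 of Col6a5 (next 9.61). The ninth was Col17a1 in KD replicate 6, at 158 normalized counts (next 72.0).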

How the results depend on the processing

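Without KD replicate 1 the counts of called chains were 9 lower and 3 higher. Leaving out each tumor in turn gave 2 to 4 chains called higher and 5 to 9 lower. By class the ranges were 0 to 1 fibrillar higher, 0 to 2 fibrillar lower, 0 to 1 basement membrane higher, 0 to 1 FACIT lower, and 1 to 2 fibril-binding proteins higher. Col11a2 lost its call without CTL replicate 2 or 4 or KD replicate 1 or 4. Col12a1 lost it without CTL replicate 1 or 2 or KD replicate 4 or 5, and Col4a3 without CTL replicate 3 or KD replicate 4 or 5. Col6a3 was also called lower without CTL replicate 4 or 5 or KD replicate 1, Col1a2 without these or KD replicate 3, and Col24a1 without KD replicate 1. Col6a1, Col7a1, Col10a1, Col14a1, Col23a1 and Col26a1 kept theirs in every alternative in which they were tested.

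Basement membrane chains called higher were 0 with pseudocount 8, the replicate block and the fibroblast covariate, and 0 with a filter at a mean of 20, which removed Col4a3. The block left 3 chains called higher and 6 lower, and Col3a1 fell under it (adjusted p = 0.0413). The covariate ended the calls of Col6a2 and Col12a1 and left 0 FACIT chains and 1 fibril-binding protein called lower. The same total gave 1 fibrillar chain called lower (Col1a2), and edgeR gave 2 fibrillar chains called higher (with Col2a1). Fibril-binding proteins called higher were 1 with pseudocount 0.5, the 75th percentile, the same total and no trend. The cause of these changes was not tested. The collagen median minus that of all genes was -0.34, and -0.18 with the covariate.

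The sign turned for chains near 0. With the covariate Col16a1 stood at 0.033, Col18a1 at -0.020, Col8a2 at 0.41 and Col17a1 at -0.17. Under edgeR Col8a2 stood at 0.12 and Col17a1 at -0.078. Col4a1 stood at 0.024 without chromosome medians and Col18a1 at -0.020 with the same total. Single tumors left out gave -0.16 to 0.044 for Col27a1, -0.015 to 0.071 for Col18a1, -0.40 to 0.093 for Col8a2, -0.16 to 0.39 for Col28a1 and -0.20 to 0.32 for Col17a1.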
